A study of Mus musculus with 6 samples.

Results

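The genes described here are the neuregulins and the ErbB receptors, 8 in all of 22584 genes in the RNA table: the receptor genes Egfr, Erbb2, Erbb3 and Erbb4 and the ligand genes Nrg1, Nrg2, Nrg3 and Nrg4. They were taken by gene symbol, 1 row per Ensembl ID, around Erbb4. The set was selected on the difference in CPM between AllPrep and TRIzol in these same libraries, where Erbb4 was known to be higher after the kit, so the values of the members in that comparison are given as a description with no test. RNA was sequenced from brain tissue of wild-type (WT) mice, extracted by either of 2 routes. AllPrep, a QIAGEN column kit that recovers DNA, RNA and protein from the same sample, gave 3 libraries. TRIzol, a phenol-based reagent from which RNA is precipitated with isopropanol, gave the 3 control libraries. All 6 share the genotype, the tissue label, amplification by T7 in vitro transcription and paired reads. The labels give no age, sex or brain region and do not say whether libraries came from separate animals, so every spread and test below covers these libraries only.

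Neuregulins are growth factors with a domain that resembles epidermal growth factor (EGF) and binds the extracellular part of ErbB3 or ErbB4. Ligand binding brings receptors together in pairs. ErbB2 binds no known ligand and acts as a partner, ErbB3 has a weak kinase and signals mainly through its partners, and ErbB4 both binds neuregulins and has an active kinase. In the rodent brain, Erbb4 is found mostly in GABAergic interneurons, Erbb3 in the oligodendrocyte lineage and Egfr in glia and progenitors. Shed or membrane-bound neuregulin from neurons acts on interneuron synapses and, at nerve axons, on myelinating cells.

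The EGF-like domain is the part of a neuregulin that meets the receptor, and its coding sequence is shown because it is what makes these genes 1 ligand family. The stretches below run from the first to the last of 6 conserved cysteine codons, 5′ to 3′, with those codons in capitals, and were read from the longest protein-coding GENCODE vM21 transcript (GRCm38) that holds the pattern.
Nrg1: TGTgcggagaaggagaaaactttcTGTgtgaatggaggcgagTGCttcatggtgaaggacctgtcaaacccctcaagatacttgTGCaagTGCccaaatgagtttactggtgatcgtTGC
Nrg3: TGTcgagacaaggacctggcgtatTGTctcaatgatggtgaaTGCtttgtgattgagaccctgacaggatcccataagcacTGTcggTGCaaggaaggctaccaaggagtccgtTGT
Nrg4: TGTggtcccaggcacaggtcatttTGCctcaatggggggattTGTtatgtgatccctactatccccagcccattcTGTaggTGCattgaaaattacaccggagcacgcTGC
The codons between neighbouring cysteines number 7, 5, 13, 1 and 8 in Nrg1, with 12 in place of 13 in Nrg3 and 10 in Nrg4. Nrg2, not shown and not compared below, also has 10. Over the 81 bases outside that variable loop, Nrg3 and Nrg4 were identical at 60.5%, Nrg1 and Nrg3 at 54.3%, and Nrg1 and Nrg4 at 53.1%. Those bases include the cysteine codons that define the pattern, which raises each value. The counts are per gene and do not tell which transcript forms were present.

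Sequencing depth was 36395330 to 50937858 counts per library. The members held between 45 counts (Nrg4 in AllPrep replicate 2) and 7886 counts (Erbb4 in AllPrep replicate 3), so Nrg4 and Erbb2 are the least precisely measured. Levels are counts scaled to a library total of 1000000 (CPM), and fold changes are AllPrep relative to TRIzol from an edgeR fit scaled by TMM. All 8 members passed the filter on low counts. The 2 methods did not overlap for 3 of the 8, with Erbb4 and Egfr higher and Nrg4 lower in AllPrep. Of all 16325 tested genes, 34.0% had no overlap, 13.4% higher and 20.6% lower in AllPrep. The 3 of 8 members are thus near the share of all genes in either direction, and the count does not set the members apart.

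Erbb4, the neuregulin receptor with both ligand binding and kinase activity, had the highest CPM of the members. It had 153, 120 and 155 CPM in AllPrep replicates 1 to 3, against 76.9, 85.7 and 77.9 CPM in TRIzol replicates 1 to 3. Every AllPrep library lay above every TRIzol library, and AllPrep replicate 2 was the lowest of its group. The ratio of mean CPM was 1.78, with a log2 fold change of 0.87 (SE 0.11). It stayed between 0.80 and 0.97 when any 1 library was left out, and was 0.53 once trends on transcript length and GC content were removed. In bulk tissue, more cells that express a gene and more of its RNA per cell cannot be told apart.

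Egfr, the founding member of the receptor family and a receptor for EGF rather than for neuregulins, also had non-overlapping levels but a smaller difference. Its values were 20.1, 19.8 and 24.4 CPM in AllPrep and 16.0, 16.8 and 18.5 CPM in TRIzol, in replicate order. AllPrep replicate 3 was the highest library, while the lowest AllPrep library lay just above the highest TRIzol library. The log2 fold change was 0.36 (SE 0.11), and with length and GC trends removed it was 0.05.

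Erbb3 had 19.0, 19.1 and 11.3 CPM in AllPrep replicates 1 to 3, and 18.4, 17.8 and 16.2 CPM in TRIzol. The groups overlapped, and the low value of AllPrep replicate 3 set it apart from the other 5 libraries. The log2 fold change was -0.05 (SE 0.19), and without AllPrep replicate 3 it was 0.16. Erbb2, the partner receptor with no ligand of its own, was even across libraries. It had 2.48, 2.39 and 2.51 CPM in AllPrep and 2.09, 2.60 and 2.47 CPM in TRIzol, with a log2 fold change of 0.08 (SE 0.17). The libraries thus overlapped for Erbb3 and Erbb2 but not for Erbb4 and Egfr, for Egfr only narrowly (19.8 against 18.5 CPM). Such a lack of overlap was common, at 34.0% of all tested genes.

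Among the ligands, Nrg3, which binds ErbB4, had the highest CPM. Nrg3 had 38.3, 42.7 and 46.1 CPM in AllPrep and 32.1, 33.7 and 40.0 CPM in TRIzol. The groups overlapped only through AllPrep replicate 1 and TRIzol replicate 3, and the log2 fold change was 0.30 (SE 0.11). Nrg1, the best studied neuregulin and a ligand of both ErbB3 and ErbB4, had 20.2, 17.1 and 18.1 CPM in AllPrep, against 15.5, 19.1 and 15.5 CPM in TRIzol. TRIzol replicate 2 exceeded AllPrep replicates 2 and 3, so the methods overlapped, with a log2 fold change of 0.18 (SE 0.11). Nrg2, a close relative of Nrg1, had 5.75, 5.94 and 4.95 CPM in AllPrep and 5.58, 6.98 and 5.40 CPM in TRIzol, with a log2 fold change of -0.08 (SE 0.15).

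Nrg4, a ligand of ErbB4 known mainly from adipose tissue, differed in the other direction from Erbb4. Its levels were 1.77, 1.17 and 1.43 CPM in AllPrep, against 3.05, 2.60 and 2.02 CPM in TRIzol, which are 78, 45 and 73 counts in AllPrep and 111, 100 and 91 counts in TRIzol. Each AllPrep library was below each TRIzol library. The ratio of mean CPM was 0.570 and the log2 fold change -0.77 (SE 0.24), between -0.92 and -0.62 with any 1 library left out. The 8 members had a median log2 fold change of 0.13, beside -0.01 over all tested genes, with 5 values above and 3 below 0.

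**Figure D1:**
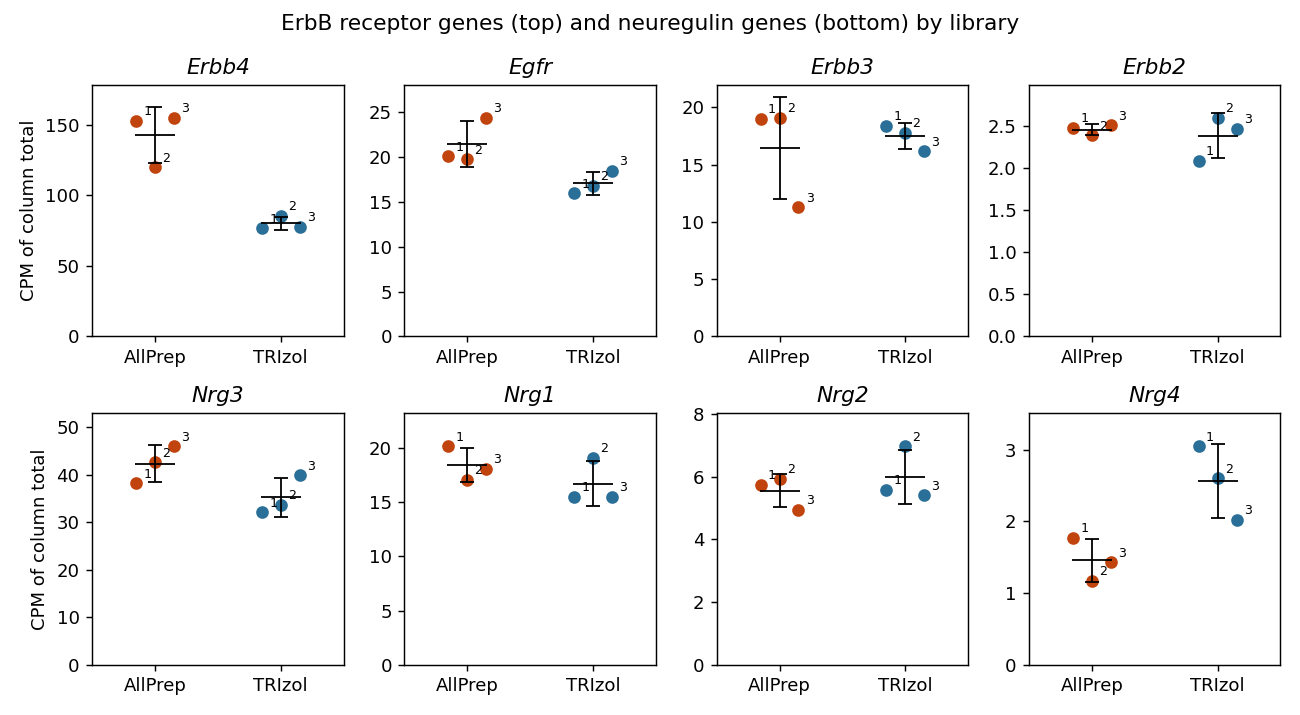
Level of each ErbB receptor gene (top row) and neuregulin gene (bottom row) in CPM of the library total, on axes that start at 0. Points are libraries with their replicate number, bars are mean and SD (n = 3 per method); Erbb4 and Egfr lie higher and Nrg4 lower in all 3 AllPrep libraries, and Erbb3 is low in AllPrep replicate 3.

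Some annotated genes share the members' positions, and the strand setting of the count is not known, so reads from both strands may be joined. Nrg4 overlaps Fbxo22, an F-box protein gene on the other strand with at most 1385 counts in a library and a log2 fold change of -0.12 (edgeR adjusted p = 0.429). Erbb2 overlaps Mien1 on the other strand, which had a log2 fold change of -0.03 (edgeR adjusted p = 0.935). Nrg3 overlaps its antisense gene Nrg3os, which had at most 15 counts in a library. The annotated neighbours inside Erbb4, 8 in number, are on its own strand and have no row in the table, and where their reads were counted is not known here.

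Levels between genes were compared per kb of the longest annotated transcript. In AllPrep the order was Erbb4 with 11.8 ± 1.63 CPM per kb (SD, n = 3), Nrg3 with 10.6 ± 0.976, Nrg1 with 3.41 ± 0.292, Erbb3 with 2.74 ± 0.745, Egfr with 2.10 ± 0.250, Nrg2 with 1.81 ± 0.173, Nrg4 with 0.696 ± 0.145 and Erbb2 with 0.491 ± 0.0130 CPM per kb. The library ranges of Erbb4 and Nrg3 overlapped, as did those of Nrg1 and Erbb3, of Erbb3 and Egfr, and of Egfr and Nrg2. In TRIzol, Nrg3 came first with 8.80 ± 1.05 CPM per kb, and Erbb4 came next with 6.66 ± 0.401, with no overlap between them. Nrg1 at 3.08 ± 0.389 and Erbb3 at 2.91 ± 0.188 overlapped, as did Nrg2 at 1.96 ± 0.283 and Egfr at 1.68 ± 0.126 CPM per kb. Nrg4 at 1.22 ± 0.246 and Erbb2 at 0.476 ± 0.0526 CPM per kb were again the lowest. By their means, 2 pairs stood in another order in the 2 methods: Erbb4 with Nrg3, and Egfr with Nrg2. Libraries of Egfr and Nrg2 overlapped in both methods, so their order is not settled in either. Erbb4 and Nrg3 were apart in TRIzol alone. The order depends on the transcript taken as length: per kb of the shortest protein-coding transcript, Erbb4 remained first in AllPrep, followed by Egfr at rank 2, Nrg1 at rank 3 and Nrg3 at rank 4.

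**Figure D2:**
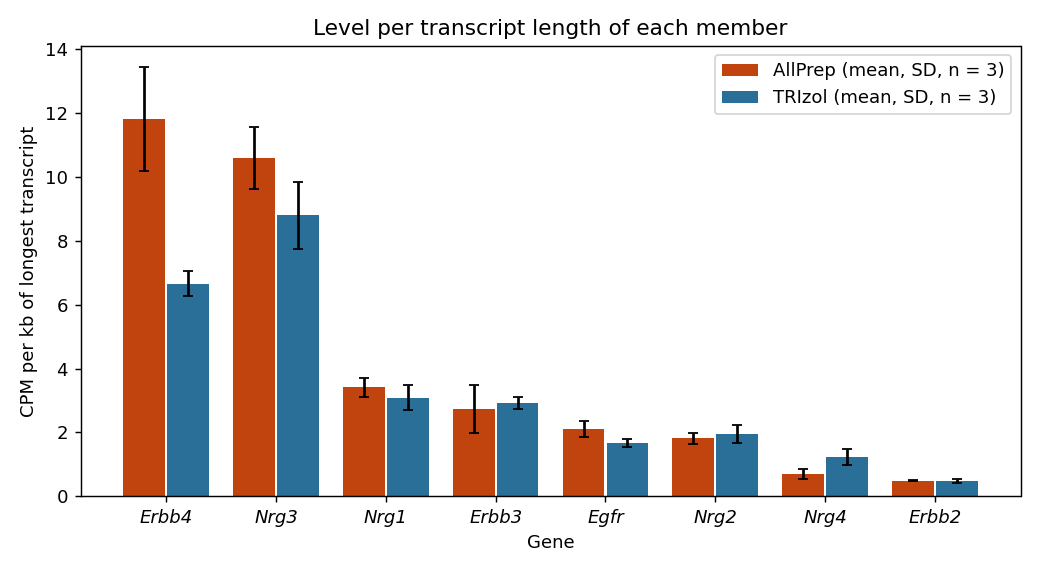
Mean level of each member in CPM per kb of its longest annotated transcript, with SD (n = 3 per method), ordered by the AllPrep mean. On this length Erbb4 and Nrg3 exceed the other 6 genes in both methods; Erbb4 is the tallest bar in AllPrep and Nrg3 the tallest in TRIzol.

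Expressed as shares per kb of the longest transcript, Erbb4 made up most of the receptor sum in both methods. It accounted for 68.8% ± 4.49 of the summed CPM per kb of the receptor genes in AllPrep and 56.8% ± 1.19 in TRIzol (SD, n = 3 each). Erbb3 made up 16.1% ± 4.99 in AllPrep and 24.8% ± 1.72 in TRIzol. Its lowest share was 10.6%, in AllPrep replicate 3. Egfr contributed 12.3% ± 1.41 and 14.3% ± 1.29, and Erbb2 2.87% ± 0.184 and 4.05% ± 0.357, in AllPrep and TRIzol in that order. Summed over the receptors, the level was 17.2 ± 1.45 CPM per kb in AllPrep and 11.7 ± 0.458 CPM per kb in TRIzol. The ligands had closer sums, with 16.5 ± 0.586 CPM per kb in AllPrep and 15.1 ± 0.799 CPM per kb in TRIzol. Nrg3 made up 64.0% ± 3.88 of the ligand sum in AllPrep and 58.3% ± 5.10 in TRIzol, and Nrg4 4.23% ± 0.959 and 8.17% ± 2.05. Per kb of the shortest protein-coding transcript the shares were different. Erbb4 then made up 56.6% ± 2.82 of the receptor sum in AllPrep and 47.5% ± 2.24 in TRIzol, and Egfr 40.5% ± 2.84 and 48.1% ± 2.48. Of the ligand sum, Nrg1 made up 54.3% ± 2.73 in AllPrep and 52.3% ± 1.85 in TRIzol, and Nrg3 23.8% ± 2.84 and 21.2% ± 3.39. Under either length the Erbb4 share was larger in AllPrep than in TRIzol, and the Nrg4 share smaller. With fixed lengths this direction follows from their ratios of mean CPM, 1.78 for Erbb4 and 0.57 for Nrg4. These were the highest of the receptors and the lowest of the ligands, so the shares restate the CPM difference.

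Libraries of 1 method differed most for Erbb3 and Nrg4. The SD of log2 CPM within a method, pooled over both, was 0.31 for Erbb3 and 0.29 for Nrg4, larger than in 76.8% and 74.2% of tested genes. Erbb4, Egfr, Nrg1, Nrg2 and Nrg3 had SDs from 0.14 to 0.17, close to the middle of all genes. Erbb2 was the steadiest member at 0.11 in spite of its low level. Among 10092 other genes with a mean of at least 10 CPM, the 5 whose log2 CPM followed that of Erbb4 most closely over the 6 libraries were Qsox2, Ptpro, Tmed8, Dcaf1 and Nup98, with Pearson r from 0.990 to 0.994. With so few libraries, and with the methods apart for all 5 as for Erbb4, such values are a description of shared order. Ptpro, a receptor tyrosine phosphatase, had a larger log2 fold change than Erbb4 (1.32 against 0.87). Its levels were 72.9, 52.3 and 77.8 CPM in AllPrep and 23.4, 32.9 and 26.9 CPM in TRIzol. Nup98, a nuclear pore gene, moved far less, with 57.8 ± 2.56 CPM in AllPrep and 51.1 ± 0.994 CPM in TRIzol.

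The members span very unequal lengths of genome. Nrg3, Erbb4 and Nrg1 cover 1104, 1076 and 1069 kb in the GENCODE vM21 annotation, mostly intron, whereas Erbb2 and Erbb3 cover 25.2 and 22.1 kb. Only 57 tested genes span 1000 kb or more, and their median log2 fold change was 0.28, with 14.0% called higher and 0 lower. In the class from 10 to 30 kb, with 5131 genes, the median was -0.06, with 1.31% called higher and 2.03% lower. Erbb4 lay at percentile 94.7 of the log2 fold changes of its own span class, Nrg3 near the median of that class, and Nrg1 below it. Erbb3 and Erbb2 lay near the median of theirs. Nrg4, of 107 kb, was in a class of 1849 genes (100 to 300 kb) with a median of 0.16, and lay below the class's 5th percentile of -0.35. By transcript length, Erbb4 (12.04 kb) and Egfr (10.21 kb) belong to the 925 genes of 8 kb or more, with a median of 0.29 and 16.5% called higher. Gene span and transcript length moved with the fold changes over all genes. For transcript length the values with its trend and that of GC content removed are given above; the part of gene span was not tested.

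**Figure D3:**
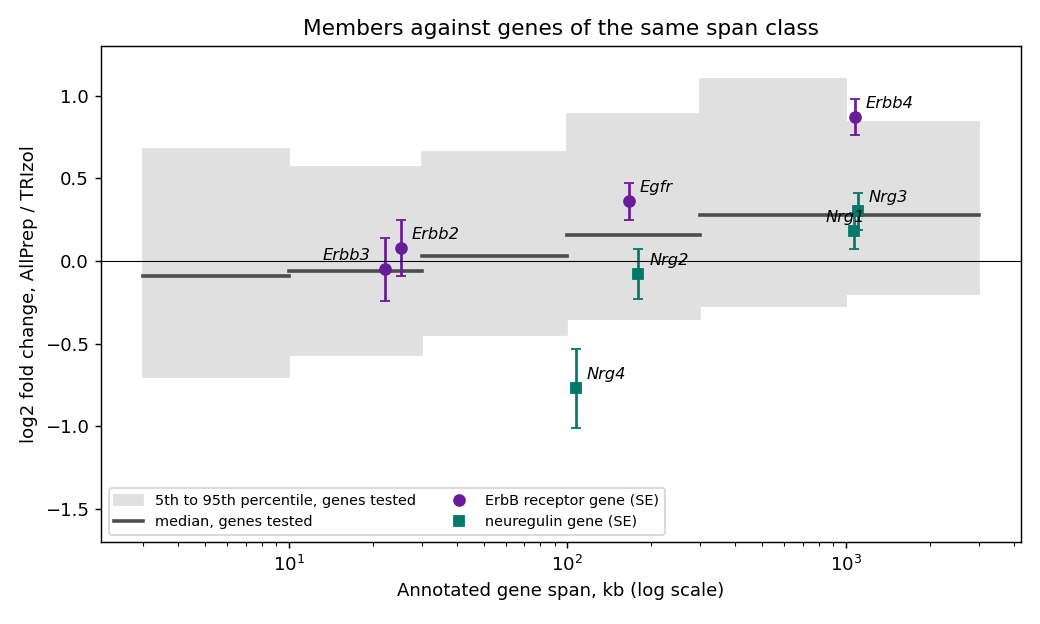
Log2 fold change (AllPrep over TRIzol, with SE) of each member against its annotated gene span in kb on a log axis, over the median (line) and the range from the 5th to the 95th percentile (grey) of tested genes in 6 span classes, of which the outermost are open-ended. Erbb4 lies just above the grey range of its class and Nrg4 below that of its own; the class medians are -0.09 for the shortest and 0.28 for the longest genes.

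Genes that act with the receptors were taken as 6 lists of 107 genes, of which 106 had a row and 104 were tested. Of these 104, 6 rose in AllPrep and 0 fell in edgeR's quasi-likelihood test (Benjamini-Hochberg adjusted p below 0.05 over all genes). That is 5.77% higher, against 2.52% higher, 1.28% lower and 3.8% in either direction among all tested genes. The lists were chosen with earlier results of these data known, among them the difference of Dlg2, so the share is a description. At an unadjusted p below 0.05, 24 of the 104 were higher and 3 lower. Their total of 26.0% is close to the 25.8% of all tested genes. The split by direction was less even than in all genes, of which 13.4% were higher and 12.4% lower. DESeq2 and limma-voom called 0 of the 104 lower. Over all genes DESeq2 called 7.59% higher and 4.58% lower, and limma-voom 2.63% and 1.3%; the counts in each list below stand beside these shares. The median log2 fold change of the 104 was 0.08. With 1 library left out, 0 pathway genes passed without AllPrep replicate 1, 2 or 3 or TRIzol replicate 2, where 13, 27, 28 and 2 of all genes passed, and 2 passed without TRIzol replicate 1 or 3. The log2 fold changes of the 6 genes stayed between 0.32 and 0.83 in those fits. With length and GC trends removed, 0 were higher and 1 was lower, Cdc37, a co-chaperone of Hsp90 (116 ± 1.48 CPM in AllPrep and 133 ± 2.91 CPM in TRIzol; edgeR adjusted p = 0.0415 there and 0.156 without that removal).

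Other EGF-family ligands and relatives held no gene that passed among 7 tested (median -0.03). None of them reached an unadjusted p below 0.05, and DESeq2 and limma-voom also called 0. The most abundant were Cspg5, which encodes neuroglycan C, a brain proteoglycan with an EGF-like domain, with 257 ± 15.1 CPM in AllPrep and 270 ± 32.6 CPM in TRIzol, and Tmeff1, with 89.6 ± 7.41 and 109 ± 21.2 CPM. Areg and Epgn fell below the filter and Ereg had no row. Among 15 proteases that cut neuregulins or other ErbB ligands, or that activate those enzymes, 0 passed (median 0.07). At an unadjusted p below 0.05, 3 were higher and 1 lower, together close to the 25.8% of all genes; DESeq2 called 2 higher and limma-voom 0. Bace1, the beta-secretase that processes Nrg1 in mice, had 93.0 ± 3.26 CPM in AllPrep and 78.5 ± 2.93 CPM in TRIzol (edgeR adjusted p = 0.064). Adam10, a shedding metalloprotease, had 108 ± 1.55 and 95.7 ± 8.02 CPM in the same order (edgeR adjusted p = 0.165).

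Of 20 regulators of receptor turnover and activity, 1 rose and 19 did not pass (median 0.06). At an unadjusted p below 0.05, 3 were higher and 1 lower, beside 13.4% and 12.4% of all genes. DESeq2 called 2 higher and limma-voom 1. Cbl, a ubiquitin ligase that sends activated EGF receptor to degradation, had 113, 108 and 138 CPM in AllPrep and 68.9, 69.0 and 78.2 CPM in TRIzol. All AllPrep libraries were higher, with a log2 fold change of 0.77 (SE 0.11, edgeR adjusted p = 0.0256). Hsp90ab1, a chaperone that stabilises ErbB2, had 1807 ± 27.5 CPM in AllPrep and 1658 ± 144 CPM in TRIzol, and Nedd4, a ubiquitin ligase, 706 ± 25.9 and 534 ± 80.7 CPM (edgeR adjusted p = 0.319 and 0.0665).

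In the list of adaptors and kinases downstream of the receptors, 3 of 40 rose and 37 did not pass (median 0.05). At an unadjusted p below 0.05, 9 were higher and 1 lower, beside 13.4% and 12.4% of all genes. DESeq2 called 7 higher and limma-voom 3. Sos1 and Sos2 are the exchange factors that activate Ras after Grb2 has docked on a receptor. Sos1 had 106, 92.0 and 98.2 CPM in AllPrep and 71.5, 66.6 and 70.7 CPM in TRIzol (log2 fold change 0.54, SE 0.07, edgeR adjusted p = 0.0242). Sos2 had 50.2 ± 2.97 CPM in AllPrep and 40.0 ± 1.57 CPM in TRIzol (log2 fold change 0.36, edgeR adjusted p = 0.0409). Gsk3b, a kinase held in check by Akt, had 285, 278 and 274 CPM in AllPrep and 213, 202 and 209 CPM in TRIzol (log2 fold change 0.46, SE 0.06, edgeR adjusted p = 0.025). For these 3 genes each AllPrep library exceeded each TRIzol library. Pak1, a kinase that acts on the cytoskeleton, was among the most abundant of the list and had 475 ± 29.7 CPM in AllPrep and 549 ± 7.08 CPM in TRIzol (edgeR adjusted p = 0.211).

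Among 12 proteins known to bind ErbB4 or its released intracellular part, 2 rose and 10 did not pass (median 0.24). At an unadjusted p below 0.05, 8 of the 12 were higher and 0 lower, beside 13.4% and 12.4% of all genes. DESeq2 and limma-voom each called 2 higher. Dlg2, the postsynaptic scaffold PSD-93, had 472, 480 and 499 CPM in AllPrep and 388, 390 and 365 CPM in TRIzol (log2 fold change 0.38, SE 0.07, edgeR adjusted p = 0.0388), a difference known when the list was made. Magi3, a membrane scaffold, had 86.6 ± 5.58 CPM in AllPrep and 63.1 ± 7.65 CPM in TRIzol (log2 fold change 0.49, edgeR adjusted p = 0.0421). Dlg4, which encodes PSD-95, anchor of ErbB4 at synapses, had 735 ± 55.2 and 619 ± 67.6 CPM in the same order (edgeR adjusted p = 0.161). In the list of genes switched on by ERK signalling, 0 of 10 passed (median 0.08), 1 was higher at an unadjusted p below 0.05, and DESeq2 and limma-voom called 0. Egr1 had 313 ± 53.4 CPM in AllPrep and 312 ± 56.9 CPM in TRIzol, and Etv1 124 ± 30.0 and 107 ± 15.3 CPM.

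**Figure D4:**
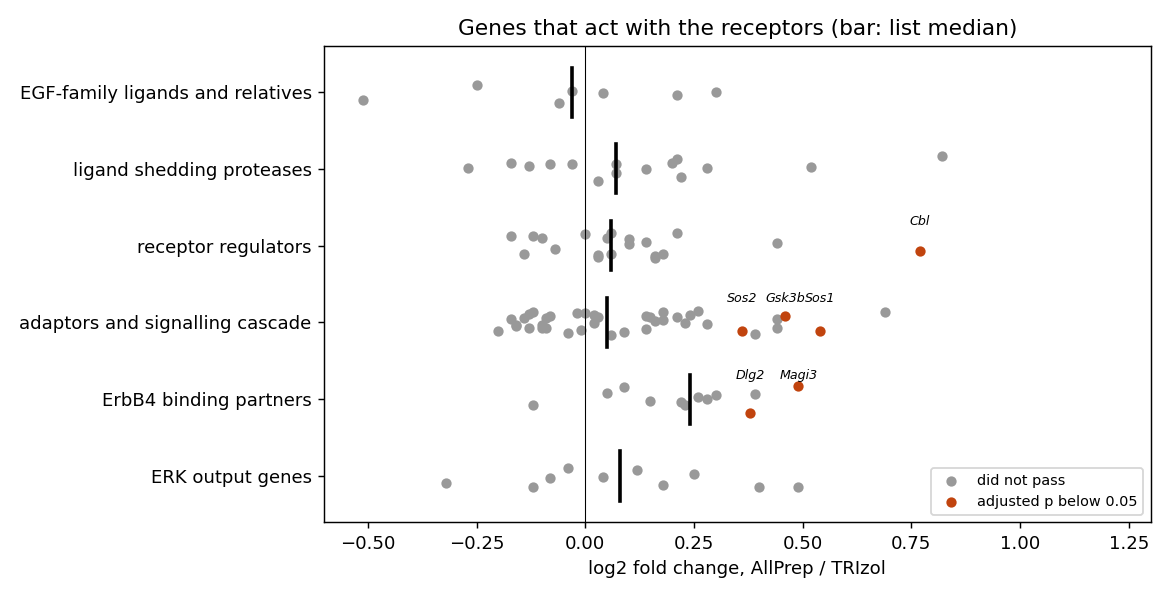
Log2 fold change (AllPrep over TRIzol) of each tested gene in the 6 lists of genes that act with the receptors; black bars are list medians and coloured points passed edgeR's test over all genes. The 6 coloured genes, Cbl, Sos1, Gsk3b, Sos2, Magi3 and Dlg2, lie between 0.36 and 0.77, and no gene passed on the lower side.

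Markers of the cell types that carry these receptors were read beside them. For GABAergic interneurons, the summed level of 10 markers ran from 1417 to 1727 CPM in AllPrep and from 1222 to 1407 CPM in TRIzol, with 0 markers called higher and 1 lower. That marker was Cck, a peptide also made by other neurons, at 96.0 ± 9.95 and 148 ± 10.8 CPM (edgeR adjusted p = 0.0337). At an unadjusted p below 0.05, 5 of the 10 were higher and 2 lower, beside 13.4% and 12.4% of all genes; DESeq2 called 3 higher and 2 lower, and limma-voom 0 higher and 1 lower. Gad1, which makes GABA, had 527 ± 101 CPM in AllPrep and 478 ± 27.1 CPM in TRIzol, and Gad2 425 ± 117 and 280 ± 50.2 CPM. Slc32a1, the vesicular GABA transporter, had 97.2 ± 18.8 and 73.5 ± 14.0 CPM. These genes mark GABAergic neurons of any kind, striatal projection neurons among them. Gad1 and Gad2 were the most abundant of the list, so the sum is not a level of interneurons alone. Pvalb, a calcium-binding protein of fast-spiking interneurons, had the lowest log2 fold change of the list at -0.98 (SE 0.28), with 33.9, 35.4 and 15.3 CPM in AllPrep and 60.0, 55.3 and 54.7 CPM in TRIzol, and did not pass (edgeR adjusted p = 0.0839). Thus 7 markers had log2 fold changes above 0 and 3 below. No marker was at 0. In replicate order the marker sums were 1727, 1453 and 1417 CPM in AllPrep and 1249, 1407 and 1222 CPM in TRIzol. Both the sum and Erbb4 were higher in each AllPrep library than in each TRIzol library, for the sum only narrowly (1417 against 1407 CPM). Within AllPrep, Erbb4 was lowest in replicate 2 and the sum in replicate 3. Such separation was not particular to this list. Sums of astrocyte and precursor markers (below) also lay higher in AllPrep without overlap, as did those of 7 microglia markers (254 to 265 against 235 to 247 CPM).

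Erbb3 and the oligodendrocyte markers were both lowest in AllPrep replicate 3, but differed otherwise. In replicate order the sum of 6 markers was 5200, 5532 and 3144 CPM in AllPrep and 6923, 6970 and 5928 CPM in TRIzol. In AllPrep replicates 1 and 2 this sum was below every TRIzol library. Erbb3, at 19.0 and 19.1 CPM there, was above every TRIzol library (16.2 to 18.4 CPM). All 6 had negative log2 fold changes from -0.56 to -0.40, and 0 passed in edgeR, DESeq2 or limma-voom, with 5 lower at an unadjusted p below 0.05, as were 12.4% of all genes. The 6 precursor markers summed to 287 to 304 CPM in AllPrep and 262 to 280 CPM in TRIzol, with 0 called in edgeR or limma-voom, 2 higher in DESeq2 and 3 higher at an unadjusted p below 0.05. For Egfr, 8 astrocyte markers summed to 4935 to 5246 CPM in AllPrep and 4228 to 4857 CPM in TRIzol, with 1 called higher, Slc1a3, a glutamate transporter (529 ± 17.7 and 406 ± 25.3 CPM, edgeR adjusted p = 0.0373). The list was evenly split, with 4 log2 fold changes above 0 and 4 below, and a median of 0.01. Slc1a2, another glutamate transporter and the most abundant of the list, had 3046 ± 177 CPM in AllPrep and 2389 ± 210 CPM in TRIzol (edgeR adjusted p = 0.0706), whereas Aldoc had 828 ± 33.7 and 994 ± 86.2 CPM and S100b 98.6 ± 13.1 and 137 ± 40.0 CPM (edgeR adjusted p = 0.152 and 0.209).

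Neuronal markers were present at high levels in every library, as the tissue label says. The 6 pan-neuronal markers summed to 6651 to 7127 CPM in AllPrep and 7021 to 7634 CPM in TRIzol, with 0 called by edgeR or limma-voom, 1 higher and 2 lower in DESeq2, and 1 higher and 2 lower at an unadjusted p below 0.05. Markers of brain parts were read in the same way, with earlier results of these data known when the lists were chosen. Choroid plexus markers summed to 616 to 1240 CPM in AllPrep and 20.2 to 36.2 CPM in TRIzol. EdgeR called 7 of 8 higher, beside 2.52% of all genes, and Otx2 was not called (log2 fold change -0.01). Ttr, the most abundant, made up most of each AllPrep sum. Of 12 hypothalamic markers, 11 were tested. EdgeR called 4 higher, DESeq2 8 and limma-voom 2, beside 2.52%, 7.59% and 2.63% of all genes. The hypothalamic sums were 43.2 to 66.5 CPM in AllPrep and 9.67 to 41.5 CPM in TRIzol. Cartpt, a peptide gene, made up 32.9 CPM of the highest TRIzol sum, in replicate 2. Striatal markers, with 0 of 8 called by edgeR, DESeq2 or limma-voom or at an unadjusted p below 0.05, ran from 399 to 1238 CPM in AllPrep and from 178 to 786 CPM in TRIzol. Dopamine neuron markers reached 343 CPM in TRIzol replicate 2, against 74.3 to 179 CPM elsewhere, with 0 of 6 called by any of the 3 tools or at an unadjusted p below 0.05. The part of these markers in the levels of the receptor and ligand genes was not tested.

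**Figure D5:**
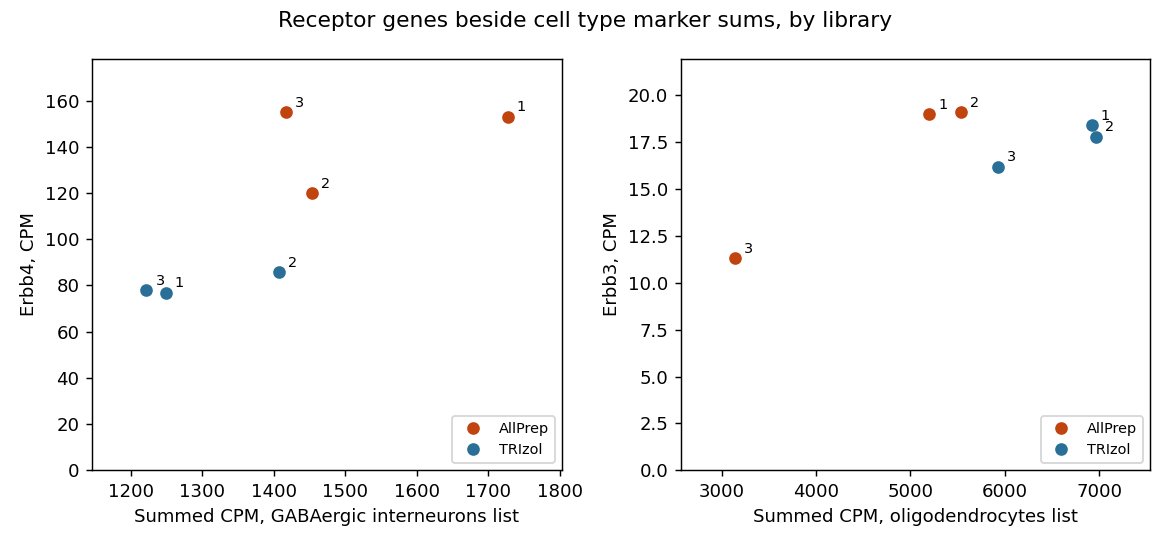
Erbb4 in CPM against the summed CPM of the 10 markers listed for GABAergic interneurons (left), and Erbb3 in CPM against that of 6 oligodendrocyte markers (right). Each point is 1 library with its replicate number. Gad1, Gad2 and Slc32a1 in the left sum also mark other GABAergic neurons. The left sums run from 1417 to 1727 CPM in AllPrep and from 1222 to 1407 CPM in TRIzol. AllPrep replicate 3 has the lowest Erbb3 level (11.3 CPM) and the lowest oligodendrocyte sum (3144 CPM). In AllPrep replicates 1 and 2, Erbb3 is above and the oligodendrocyte sum below every TRIzol library.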

How the data were processed

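RNA of 6 brain libraries, 3 per extraction method, was analysed from 1 table of raw counts per gene that the authors deposited; libraries were grouped by title and columns matched by name. Per the submitters' processing notes, reads were handled with STAR 2.7.9a and featureCounts on build GRCm39, beside FastQC 0.11.9 and limma 3.60.6, and cutadapt; how strand and multi-mapping reads were treated is not given in the sources used. The 22692 rows held 22584 Ensembl IDs; 108 repeated rows with identical counts were removed. Replicates differed beyond sampling noise in every pair (chi-square divided by its degrees of freedom, 14.4 or more). Of counts from 1 to 20, 64.2% to 70.9% were even, a pattern that counting both mates would give.

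Tests used edgeR 4.0.16 under R 4.3.3 (filterByExpr, TMM, quasi-likelihood F-test, two-sided, Benjamini-Hochberg adjusted p below 0.05), with no block; the SE is the log2 fold change divided by the square root of F. On simulated data of AllPrep against TRIzol with 16325 genes, that step recovered 40.3%, 61.2% and 89.4% of genes changed 1.5-fold, 2-fold and 4-fold, with 5.22% of the calls false. Transcript lengths, GC content and gene spans came from GENCODE vM21, which is on GRCm38, and no coordinates are given; 98.4% of IDs matched. Members, lists and rules were chosen with earlier results of these data known. The genes named were all members, the passing genes and the 2 most abundant of each pathway list, the 5 most like Erbb4, and in the marker lists defining and abundant genes; Cck, Slc1a3, Aldoc, S100b, Cartpt, Cdc37 and the overlapping genes were added after their values were seen. Some genes picked by this rule are not reported here. Alternatives were limma-voom (limma 3.58.1), DESeq2 1.42.0, scaling by library size alone or by the size factors of DESeq2, other filters, halved counts, length and GC trends removed (mgcv 1.9.3), a block for the replicate number, and 1 library left out at a time.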

Additional observations from a re-analysis of the deposited data

How the results depend on the processing

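Over all genes, 621 passed. DESeq2 called 2001, the fit with length and GC trends removed 399, and the fit with the replicate number as a block 236; leaving out 1 library at a time gave 2 to 205. The share of calls that were higher in AllPrep was 66.3%, against 52.6% with library size alone (348 higher, 313 lower) and 37.1% with length and GC trends removed (148 higher, 251 lower). Genes of the 6 pathway lists called higher numbered 6, against 13 in DESeq2, 2 with the replicate block, 0 with length and GC trends removed, and 0 to 2 with 1 library left out; 1 was called lower with length and GC trends removed, against 0 in the other fits; in the remaining alternatives the count of higher calls stayed within 1.5 times. The causes were not tested. No label says what the replicate number marks. Deviations of same-numbered libraries from their group means correlated at r = -0.05, 0.01 and 0.16, beside -0.17 to 0.2 for libraries of different number. With 3 libraries per mean, such values cannot settle whether same-numbered libraries share an animal or a batch. Of the members, 5 had a log2 fold change above 0, and 4 to 6 did in the alternatives. In the alternatives, the log2 fold change of Erbb4 ran from 0.53 to 0.97. That of Egfr ran from 0.05 to 0.42 and that of Nrg4 from -0.92 to -0.62. Nrg1 (0.10 to 0.28) and Nrg3 (0.23 to 0.40) also kept their sign, while Erbb2, Erbb3 and Nrg2 each changed sign in at least 1 alternative. For Erbb4, Egfr and Nrg4 the methods did not overlap, so leaving out 1 library could hardly reverse the sign. These ranges are therefore a description. With the shortest protein-coding transcript as length, Erbb4 stayed first per kb in AllPrep, while Egfr, Nrg2, Nrg3 and Erbb3 changed rank, Nrg3 to 4. Depth limits Nrg4 and Erbb2 most, at no more than 128 counts per library; counting error is understated where both reads of a pair were counted.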
